A study of Mus musculus with 8 samples.

Results

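The colony-stimulating factor genes Csf1, Il34, Csf2 and Csf3 and the receptor genes Csf1r, Csf2ra, Csf2rb, Csf2rb2 and Csf3r were examined in liver RNA of mice with colitis. They are 9 of the 22180 genes that could be named singly on the array, 4 ligands and 5 receptors, and all 9 were measured. The genes were chosen by family, with earlier results of these arrays known, and the row that stands for each gene was chosen by its mean level over the 8 arrays among the rows naming that gene alone. The difference between genotypes took no part in the choice of row. Only Csf2 had more than 1 such row with means of 5.89 and 4.06 log2 units. The study hybridised total liver RNA to Affymetrix Mouse Gene 2.0 ST arrays, 4 from mice labelled IL-10 knockout and 4 from wild-type mice. All 8 mice were C57BL/6, 6 weeks old, labelled female, and drank 3% dextran sulfate sodium (DSS), which injures the colon lining, for 7 days. No animals without DSS enter the comparison, so it sets the genotypes against each other with both groups under DSS. The labels do not name the knockout allele or say whether the knockout and wild-type mice were littermates.

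Colony-stimulating factors are secreted proteins that drive the production, survival and activation of myeloid cells. Macrophage colony-stimulating factor (Csf1) and interleukin-34 (Il34) act through the receptor tyrosine kinase Csf1r, on which Kupffer cells, the resident macrophages of liver, depend. Granulocyte-macrophage colony-stimulating factor (Csf2) binds the alpha chain Csf2ra, which signals with the common beta chain Csf2rb, shared with the interleukin-3 and interleukin-5 receptors. Mice carry a second beta chain, Csf2rb2, which serves interleukin-3 alone. Granulocyte colony-stimulating factor (Csf3), the main driver of neutrophil production, acts through Csf3r.

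Values are log2 levels from robust multi-array averaging (RMA), and a difference is always the knockout-labelled mean minus the wild-type mean on that scale. Il10 itself read between 5.69 and 6.41 in the knockout-labelled arrays, against 4.90 to 5.08 in wild-type arrays. It was higher and not lower in the arrays labelled knockout (difference 1.00; limma adjusted p = 0.00851). Where the mutation lies relative to those probes is not stated, so Il10 gives no check of the genotype, and directions are those of the labels. Against the label female, 4 arrays had Y-linked signal (mean of 3 Y-linked genes 8.20 to 8.52) and low Xist. These were knockout-labelled replicates 1 and 2 and wild-type replicates 1 and 2, while replicates 3 and 4 of each group had Xist between 11.7 and 11.8. Both sets thus hold 2 arrays of each genotype, and results are also given within each set and with the set as a block. Hepatocyte markers fitted the tissue label, with a mean level of the 13 genes between 12.5 and 12.6 in knockout-labelled arrays and between 12.5 and 12.6 in wild-type arrays.

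All 9 genes had a higher mean in the knockout-labelled arrays, and 5 of the 9 passed limma's test at an adjusted p below 0.05. The 4 receptors, Csf1r, Csf2rb, Csf2rb2 and Csf3r, and 1 ligand, Csf3, rose, and none fell. Among all genes tested 3.15% were called, 1.56% higher and 1.59% lower. In 6 of the 9 genes every knockout-labelled array lay above every wild-type array, as in 7.20% of all genes. The median difference was 0.54 over the 5 receptors and 0.25 over the 4 ligands, beside 0.03 over all 22180 genes. A difference above 0 was found in 56.0% of all genes.

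**Figure D1:**
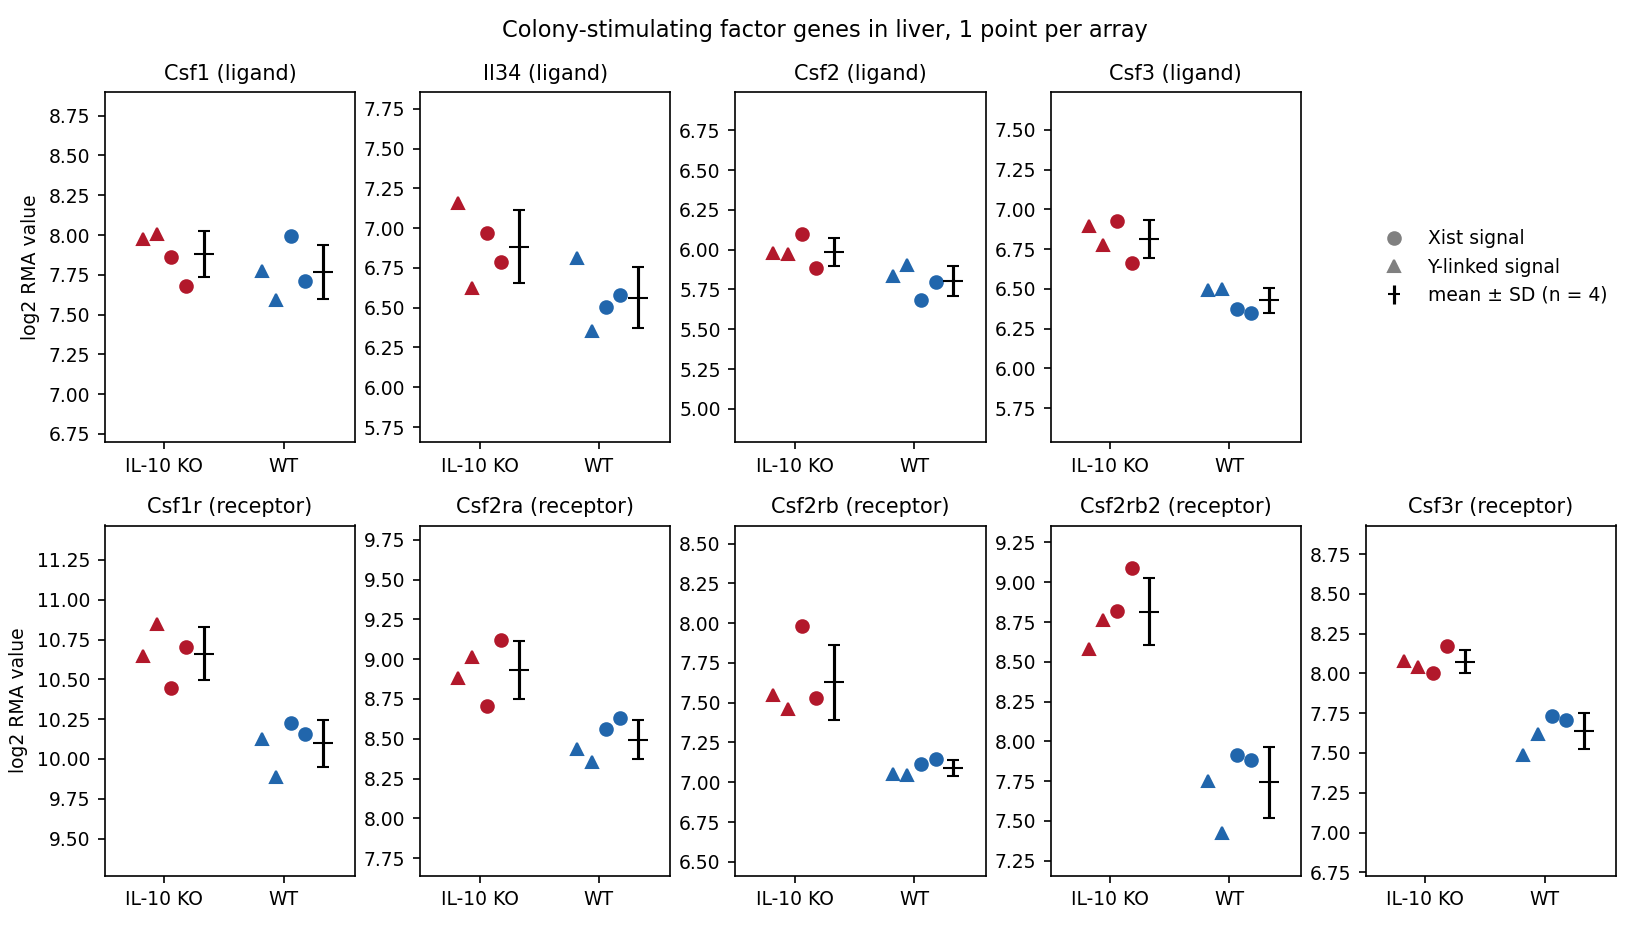
Log2 RMA value of each gene (vertical axis, each panel spanning the same number of log2 units) in knockout-labelled (left, red) and wild-type (right, blue) arrays, 1 point per array, circles for arrays with Xist signal and triangles for arrays with Y-linked signal, with the group mean ± SD (n = 4). The groups do not overlap for Csf3 and for all 5 receptors, and they overlap for Csf1, Il34 and Csf2.

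Among the ligands only Csf3 was called, though all 4 had a higher mean in knockout-labelled arrays. Whether it changed more than the other ligands was not tested. Csf3 read 6.89, 6.78, 6.92 and 6.66 in knockout-labelled replicates 1 to 4, against 6.49, 6.50, 6.37 and 6.35 in wild-type replicates 1 to 4. The lowest knockout-labelled array lay 0.16 log2 units above the highest wild-type array. The means were 6.82 ± 0.12 in knockout-labelled arrays and 6.43 ± 0.08 in wild-type arrays (SD, n = 4 each), a difference of 0.39 (SE 0.08), or 1.31-fold, with limma adjusted p = 0.0338. All of these values lie within 1 log2 unit of the array medians of 6.09 to 6.22, and no detection call comes with them, so the fold is uncertain. The call did not survive the loss of any array except knockout-labelled replicate 4. The adjusted p was 0.0527, 0.0577 and 0.0607 without knockout-labelled replicates 1, 2 and 3. Leaving out wild-type replicates 1 to 4 in turn gave 0.0787, 0.0669, 0.101 and 0.0735. The call was also lost with a common median per array (adjusted p = 0.0596) and with all rows tested together (0.0687).

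Il34 and Csf2 did not pass the test and their groups overlapped. Il34 read 7.16, 6.62, 6.97 and 6.79 in knockout-labelled arrays and 6.82, 6.35, 6.50 and 6.58 in wild-type arrays. Replicate 1 was the highest array and replicate 2 the lowest in each group. The difference was 0.32 (SE 0.13; limma adjusted p = 0.194). Csf2 read 5.98, 5.97, 6.10 and 5.88 in knockout-labelled arrays and 5.84, 5.90, 5.68 and 5.80 in wild-type arrays, all below the array medians. Its groups overlapped by 1 array, knockout-labelled replicate 4 lying just under wild-type replicate 2, and the difference was 0.18 (SE 0.08; limma adjusted p = 0.211). The second Csf2 row, dimmer at 3.97 to 4.14 in knockout-labelled arrays and 4.04 to 4.12 in wild-type arrays, differed by -0.04, so the rows disagreed in sign.

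Csf1 had the smallest difference of the 9 genes. It read 7.97, 8.01, 7.86 and 7.68 in knockout-labelled arrays and 7.77, 7.59, 7.995 and 7.71 in wild-type arrays. Wild-type replicate 3 was level with the highest knockout-labelled arrays. The difference was 0.11 (SE 0.10), with a 95% interval from -0.12 to 0.34 and limma adjusted p = 0.553. That interval reaches past the difference of 0.32 seen in Il34, so these arrays do not show that Csf1 was unaltered.

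Among the receptors, the interleukin-3 beta chain Csf2rb2 had the largest difference of the 9 genes. It read 8.58, 8.77, 8.82 and 9.09 in knockout-labelled arrays, against 7.75, 7.42, 7.91 and 7.89 in wild-type arrays. The groups were separated by 0.67 log2 units, the widest gap of the 9. The means were 8.81 ± 0.21 in knockout-labelled arrays and 7.74 ± 0.22 in wild-type arrays (SD, n = 4 each), a difference of 1.07 (SE 0.13), or 2.10-fold, with limma adjusted p = 0.00614. It kept its call under all 19 alternatives, including each of the 8 fits without 1 array, with adjusted p between 0.00126 and 0.0348.

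The common beta chain Csf2rb also rose. Whether it changed less than Csf2rb2 was not tested. It read 7.55, 7.46, 7.98 and 7.53 in knockout-labelled arrays, against 7.05, 7.05, 7.11 and 7.15 in wild-type arrays. The wild-type arrays were within 0.10 log2 units of each other, while knockout-labelled replicate 3 stood above the rest of its group. The means were 7.63 ± 0.24 in knockout-labelled arrays and 7.09 ± 0.05 in wild-type arrays (SD, n = 4 each), a difference of 0.54 (SE 0.11), or 1.45-fold, with limma adjusted p = 0.0320. Without knockout-labelled replicate 3 the difference was 0.42 and the adjusted p 0.0162. The call was lost without knockout-labelled replicate 4 (adjusted p = 0.0689) and without wild-type replicates 1, 2, 3 or 4 (0.0947, 0.0844, 0.0836 and 0.0591), and with all rows tested together (0.0684). Csf2rb2 and Csf2rb are close relatives in sequence and lie next to each other on chromosome 15, with 0 protein-coding genes between them in RefSeq. Probe sequences were not used here, and how far their rows read each other's transcript was not tested.

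The alpha chain Csf2ra lay just outside the threshold. It read 8.88, 9.02, 8.71 and 9.12 in knockout-labelled arrays, against 8.43, 8.36, 8.56 and 8.63 in wild-type arrays. The groups did not overlap, though knockout-labelled replicate 3 lay only 0.08 log2 units above the highest wild-type array. The difference was 0.44 (SE 0.10), or 1.35-fold, with limma adjusted p = 0.0507. It passed without knockout-labelled replicate 3 (adjusted p = 0.0279), with array weights (0.0251), with quantile normalization (0.0298), with the lowest 40% of genes left out (0.0407), with the block for Xist or Y-linked signal (0.0463) and with trend and robust settings (0.0484).

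The granulocyte colony-stimulating factor receptor Csf3r had the tightest knockout-labelled group. It read 8.08, 8.04, 8.001 and 8.17 in knockout-labelled arrays, against 7.49, 7.62, 7.74 and 7.71 in wild-type arrays. The means were 8.07 ± 0.07 in knockout-labelled arrays and 7.64 ± 0.11 in wild-type arrays (SD, n = 4 each), a difference of 0.43 (SE 0.08), or 1.35-fold, with limma adjusted p = 0.0207. The groups did not overlap. The call was lost without knockout-labelled replicate 4 (adjusted p = 0.0673) and without wild-type replicates 1 or 2 (0.0564 and 0.0617).

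Csf1r, the receptor of both Csf1 and Il34, also rose. It read 10.65, 10.85, 10.44 and 10.70 in knockout-labelled arrays, against 10.13, 9.89, 10.23 and 10.15 in wild-type arrays. The groups were 0.22 log2 units apart, with wild-type replicate 2 the lowest array. The means were 10.66 ± 0.17 in knockout-labelled arrays and 10.10 ± 0.15 in wild-type arrays (SD, n = 4 each), a difference of 0.56 (SE 0.10), or 1.48-fold, with limma adjusted p = 0.0235. The call was lost without knockout-labelled replicate 4 (adjusted p = 0.0721), without wild-type replicates 1 or 2 (0.0677 and 0.0620), and with all rows tested together (0.0543).

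**Figure D2:**
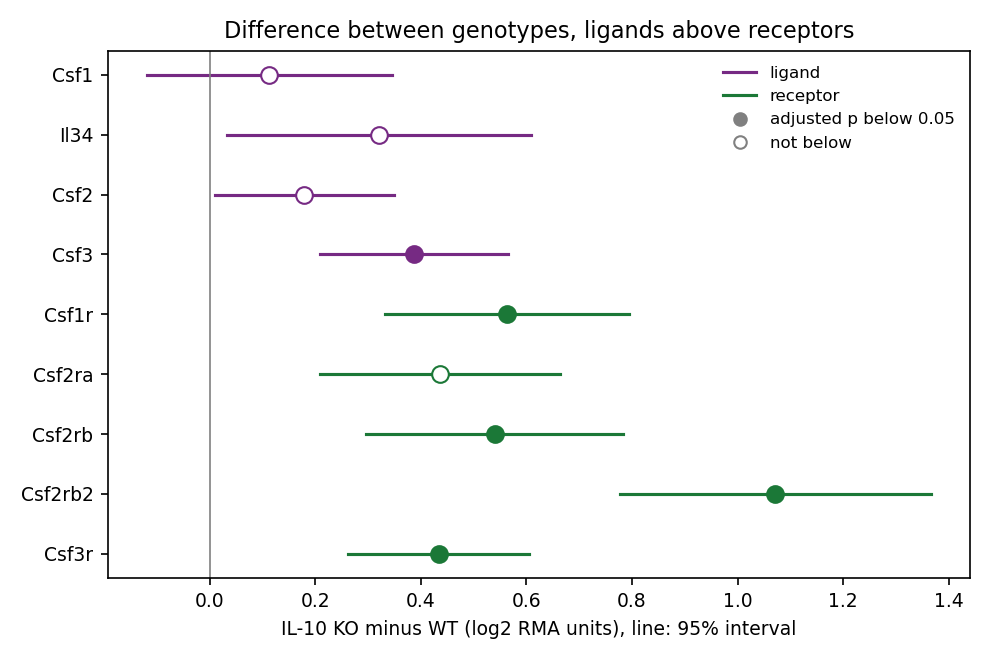
Difference between knockout-labelled and wild-type arrays for each gene (horizontal axis, log2 RMA units), ligands in purple above receptors in green, with lines for the 95% interval of the fit and filled points where the limma adjusted p was below 0.05. All points lie right of 0, from 0.11 for Csf1 to 1.07 for Csf2rb2, and only the interval of Csf1 reaches below 0.

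The stretch before the transcription start is shown for the receptors whose promoter was printed from RefSeq (GRCm38.p6). Of these, Csf2ra was not called, and shared control of the receptors was not tested. The RefSeq table held promoters for 5 of the 9 genes, 3 receptors and 2 ligands. The entries not found were Csf1r, Csf2rb, Csf3 and Il34. Each sequence is the 250 bases before the start, 5′ to 3′ on the strand of the gene, and capitals mark GAGGAA, the core of the site read by the myeloid factor PU.1, on either strand (TTCCTC where it lies on the opposite strand). The regions are chr15:78305722-78305971 on the minus strand for Csf2rb2, chr4:126024409-126024658 on the plus strand for Csf3r and chr19:61228419-61228668 on the minus strand for Csf2ra.
Csf2rb2: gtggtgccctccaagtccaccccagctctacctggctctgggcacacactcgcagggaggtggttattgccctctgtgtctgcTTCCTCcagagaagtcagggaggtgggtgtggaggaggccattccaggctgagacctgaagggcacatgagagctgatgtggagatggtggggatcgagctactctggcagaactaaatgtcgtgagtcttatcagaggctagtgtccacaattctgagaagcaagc
Csf3r: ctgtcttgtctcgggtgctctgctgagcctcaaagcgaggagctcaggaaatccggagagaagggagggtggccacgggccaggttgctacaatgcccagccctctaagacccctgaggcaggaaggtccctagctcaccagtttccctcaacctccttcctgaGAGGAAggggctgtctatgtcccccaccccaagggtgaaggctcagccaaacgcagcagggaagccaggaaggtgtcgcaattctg
Csf2ra: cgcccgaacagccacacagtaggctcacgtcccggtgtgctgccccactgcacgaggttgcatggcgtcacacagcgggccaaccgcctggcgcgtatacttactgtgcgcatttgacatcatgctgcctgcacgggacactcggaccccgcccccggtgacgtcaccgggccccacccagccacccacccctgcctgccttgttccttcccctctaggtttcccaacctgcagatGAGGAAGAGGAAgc
GAGGAA was found once in Csf2rb2, from base -167 to -162 before the start on the opposite strand, once in Csf3r, from -86 to -81, and in a direct repeat in Csf2ra, from -14 to -3. It was not found in the same windows of Csf1 and Csf2. Of 32851 windows of this length before the starts of all genes in the table, 23.3% hold it, so a match by itself is common.

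Further motifs were searched on both strands. TTCNNNGAA, a spacing read by STAT factors, occurred in Csf2rb2 from -15 to -7, and 7.02% of all windows hold it. TTNNGNAA, a form of the C/EBP site, occurred in Csf2ra from -31 to -24 and in Csf2, and 36.8% of windows hold it. No match overlapped a GAGGAA. These are matches of letters and not measured binding.

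Receptors were then set against their ligands. For each of 5 pairs the ligand value was subtracted from the receptor value in every array, so that the difference between genotypes is the change of the receptor minus the change of the ligand. Csf1r changed by 0.45 (SE 0.11) more than Csf1, with the groups apart (two-sided exact permutation test, p = 0.0286, the least that the 70 arrangements can give; p = 0.0714 adjusted over the 5 pairs). Csf2rb changed by 0.36 (SE 0.11) more than Csf2, with the same exact permutation p and adjusted p. Csf2 read below the array medians, and the part of its low signal in its pairs was not tested. The differences for Csf2ra against Csf2 (0.26, SE 0.17) and Csf1r against Il34 (0.24, SE 0.20) had exact permutation p = 0.143 and 0.314. Csf3r and Csf3, the pair in which ligand and receptor were both called, differed by 0.05 (SE 0.13; exact permutation p = 0.743). No pair passed after adjustment. With the smallest possible p, at least 3 of the 5 pairs would have to reach it for any to pass, so the design can barely separate receptor from ligand.

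The arrays did not rank alike across the genes. Within the wild-type group, replicate 2 was the lowest array for 6 of the 9 genes, with a median deviation of -0.36 from the genes' means over the 5 receptors and -0.18 over the 4 ligands. Within the knockout-labelled group, replicates 3 and 4 were each the highest array for 3 genes and the lowest for 3. Replicate 3 was highest for Csf2, Csf3 and Csf2rb and lowest for Csf1r, Csf2ra and Csf3r. Replicate 4 was highest for Csf2ra, Csf2rb2 and Csf3r and lowest for Csf1, Csf2 and Csf3. The median deviation in that array was 0.32 over the receptors and 0.02 over the ligands, whereas in knockout-labelled replicate 3 it was 0.15 over the receptors and 0.23 over the ligands.

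**Figure D3:**
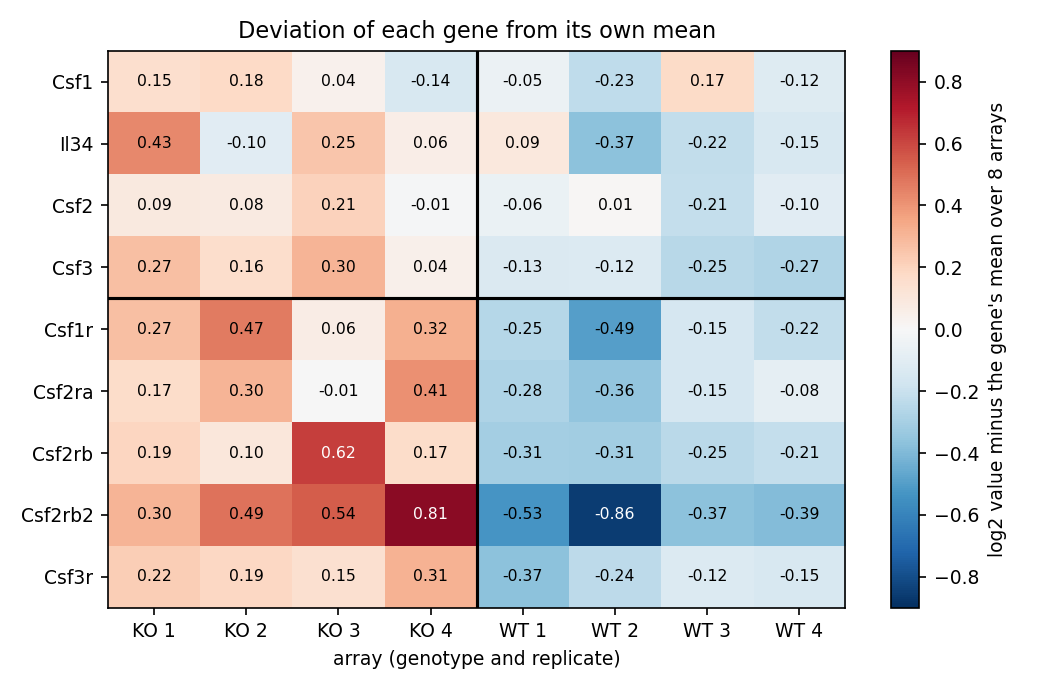
Deviation of each gene (rows, ligands above the line) in each array (columns, knockout-labelled left of the line) from the mean of that gene over the 8 arrays, in log2 units, red above and blue below the mean. The receptor rows are red in all knockout-labelled arrays except Csf2ra in replicate 3 (-0.01), and blue in all wild-type arrays, deepest for Csf2rb2 in wild-type replicate 2 (-0.86).

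Differences were computed within each set of arrays, 2 against 2. The difference of Csf2rb2 was 1.09 where Y-linked signal was found and 1.06 where Xist signal was found, and it passed in each set alone (limma adjusted p = 0.0348 and 0.0219). Csf1r differed by 0.74 in the Y-linked set and 0.38 in the Xist set, and Csf2ra by 0.55 and 0.32. Csf3r differed by 0.51 and 0.36, Csf2rb by 0.46 and 0.62, and Csf3 by 0.34 and 0.43 in the same order. Il34 had 0.30 and 0.34, and Csf2 had 0.11 and 0.25. Csf1 was the exception in sign, with 0.31 in the Y-linked set and -0.08 in the Xist set. No gene other than Csf2rb2 passed within a set, and the interaction between genotype and set did not pass for any of the 9 (limma adjusted p from 0.911 to 0.996). With 2 arrays a group in each set, this does not show that the sets respond alike. With the set as a block, all 5 receptors and Csf3 passed, where 2.13% of all genes were called higher.

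Many markers of myeloid cells, which carry these receptors, also rose. RNA of whole liver does not tell more cells of a type from more RNA per cell. Beside the counts that follow, 1.56% of all genes were called higher and 1.59% lower. Of 19 measured neutrophil markers, 12 rose, 1 fell and 6 did not pass, and their mean level was 7.00 to 7.53 in knockout-labelled arrays, against 6.24 to 6.59 in wild-type arrays. The neutrophil granule genes Ngp (2.42) and Mmp8 (2.16) and the chemokine receptor Cxcr2 (0.86) had the smallest p and kept their calls without any 1 array. Granule genes did not all rise. The 1 that fell was the granule gene Prtn3 (-0.72; limma adjusted p = 0.0101), named after its value was seen. The granule genes Mpo (0.56; 0.0624), Camp (0.53; 0.0713), Ctsg (0.22; 0.281) and Elane (0.06; 0.646), named likewise, did not pass. Ltf (0.80; limma adjusted p = 0.0148) and Mmp9 (0.87; 0.0392), granule genes also named after their values were seen, rose. Of 16 Kupffer cell and macrophage markers 6 rose and 10 did not pass, at a mean level of 9.45 to 9.87 in knockout-labelled arrays and 9.02 to 9.32 in wild-type arrays. C1qb (0.64), a complement subunit, and Cd163 (1.01), the hemoglobin scavenger receptor, rose and kept their calls without any 1 array. The complement subunit C1qc (0.51; limma adjusted p = 0.0253) lost its call without knockout-labelled replicates 2 or 4 or wild-type replicates 1, 2 or 4 (adjusted p up to 0.0812), with a common median (0.0520) and with all rows tested together (0.0571). Of 12 monocyte and dendritic cell markers 4 rose and 8 did not pass, at 7.34 to 7.64 in knockout-labelled arrays and 6.88 to 7.07 in wild-type arrays, led by the Fc receptor Fcgr4 (1.37), which kept its call without any 1 array. Chil3 (1.05; limma adjusted p = 0.0143) lost its call without wild-type replicate 3 (0.0502), and Plac8 (1.06; 0.0189) lost its call when wild-type replicate 1 or 2 was left out (up to 0.0615). The dendritic cell genes of this list did not pass. These were Itgax (-0.01; limma adjusted p = 0.951), Zbtb46 (0.08; 0.572), Xcr1 (-0.17; 0.434) and Cd209a (0.01; 0.953), named after their values were seen. RMA values do not reach 0 (the lowest in the table was 2.49), so no marker can be read as absent. The part of these cells in the receptors' differences was not tested.

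**Figure D4:**
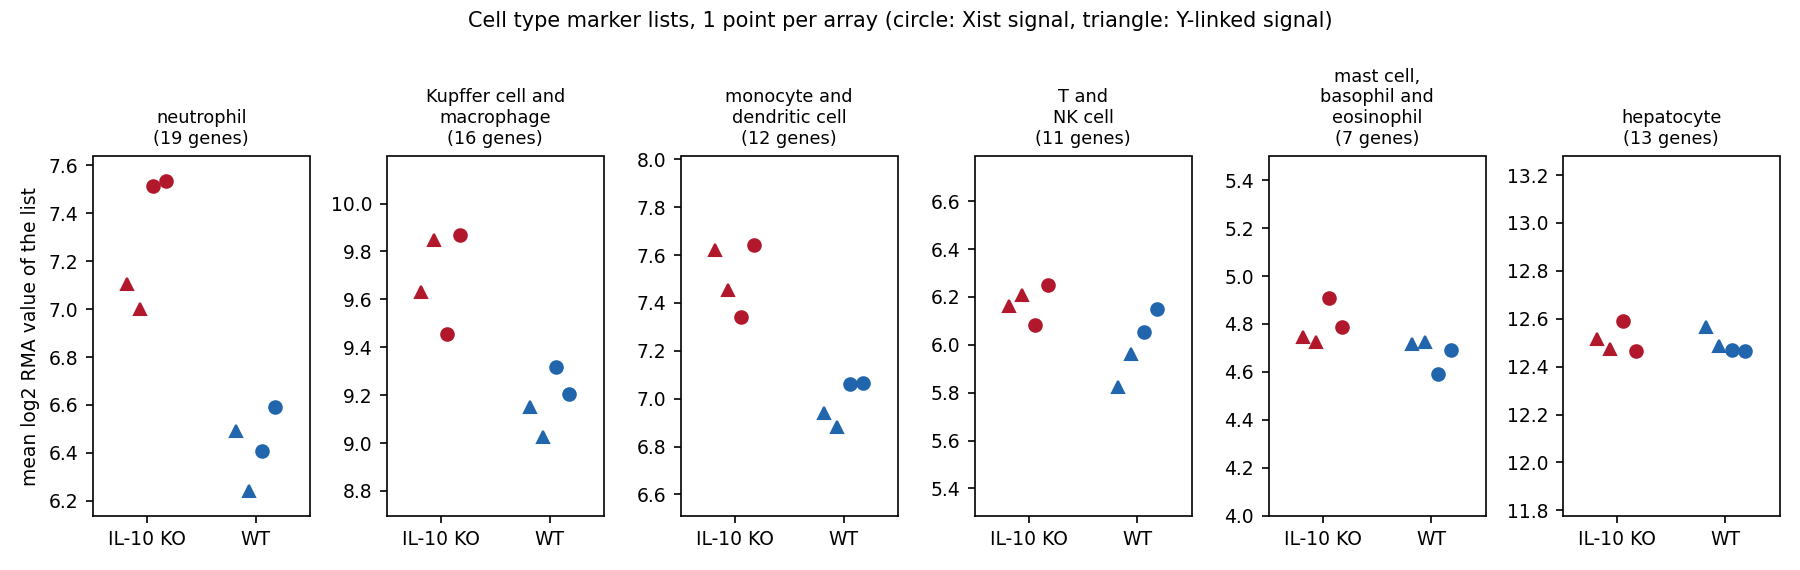
Mean log2 RMA value of each cell type marker list (vertical axis, same span in each panel) in knockout-labelled (left, red) and wild-type (right, blue) arrays, 1 point per array, circles for Xist signal and triangles for Y-linked signal. The neutrophil, macrophage and monocyte panels show groups that do not overlap, while the T and NK cell, mast cell and hepatocyte panels show groups that overlap.

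Mast cells, basophils and eosinophils, which use the beta chains for interleukin-3 and interleukin-5, had no called marker. Of 7 markers 0 were called by limma, and 0 had an unadjusted p under 0.05, with mean levels of 4.72 to 4.91 in knockout-labelled arrays and 4.59 to 4.73 in wild-type arrays. Over all genes 3.15% were called, and 4700 of 22180 had an unadjusted limma p under 0.05. These mean levels lie below the array medians of 6.09 to 6.22, so they do not show that such cells were unchanged. The other parts of the interleukin-3 and interleukin-5 systems, named after their values were seen, did not pass either. The differences were 0.24 for Il3 (adjusted p = 0.213), 0.12 for its alpha chain Il3ra (0.506), 0.09 for Il5 (0.595) and 0.03 for its alpha chain Il5ra (0.806). Il3, Il5 and Il5ra read below the array medians in every array. Among 11 measured genes of other haematopoietic growth factors and receptors, 1 rose and 10 did not pass. That gene was Flt3 (0.44; limma adjusted p = 0.0143), a receptor of the same kinase family as Csf1r. It read 5.41 to 6.05, below the array medians in all 8 arrays, so the size of its difference is uncertain.

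Downstream of the receptors, 27 of 30 listed signalling genes were measured, of which 4 rose, 1 fell and 22 did not pass, with a median difference of 0.20. Among all genes 1.56% were called higher and 1.59% lower. Pik3cd, a lipid kinase subunit of leukocytes, averaged 7.06 ± 0.15 in knockout-labelled arrays and 6.38 ± 0.10 in wild-type arrays (SD, n = 4 each; difference 0.69; limma adjusted p = 0.00682). Tyrobp, an adaptor of myeloid receptors, rose by 0.62 (adjusted p = 0.0126). Stat5b, a transcription factor that these receptors and the growth hormone receptor use, went the other way, with 9.47 ± 0.11 in knockout-labelled arrays and 10.10 ± 0.13 in wild-type arrays (SD, n = 4 each; difference -0.62; limma adjusted p = 0.00851). These 3 genes kept their calls without any 1 array. Socs3, a feedback inhibitor of Csf3r signalling named after its value was seen, had a difference of 0.63 (SE 0.21) and did not pass (limma adjusted p = 0.124).

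Of 10 transcription factors of myeloid cells, 2 rose and 8 did not pass, where 1.56% of all genes were called higher. The largest difference of the list in size was a lower mean of Egr1 in knockout-labelled arrays (-1.35; limma adjusted p = 0.0905). Egr1, named after its value was seen, did not pass. Spi1, which encodes PU.1, averaged 8.47 ± 0.06 in knockout-labelled arrays and 7.81 ± 0.16 in wild-type arrays (SD, n = 4 each; difference 0.66; limma adjusted p = 0.00704). It kept its call without any 1 array. Runx1 had a difference of 0.94 (limma adjusted p = 0.0429). Among the fits without 1 array it kept its call only without knockout-labelled replicates 1 or 2. Its adjusted p was up to 0.120 without any 1 of the other arrays (knockout-labelled replicates 3 and 4, wild-type replicates 1 to 4). The call was also lost with all rows tested together (0.0862), a common median (0.0532), quantile normalization (0.0506) and in the Y-linked set alone (0.0980).

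Upstream, among 14 measured genes that induce colony-stimulating factors, 4 rose and 10 did not pass, where 1.56% of all genes were called higher. Smallest in p were Il1r1, the interleukin-1 receptor (1.44; limma adjusted p = 0.00614), Il17ra, the interleukin-17 receptor (1.05; 0.00676), and the adaptor Myd88 (0.77; 0.0151). Myd88 did not pass when wild-type replicate 1 or 2 was left out (adjusted p up to 0.0533), and the other 2 kept theirs without any 1 array. The 6 cytokines of the same list, named after their values were seen, did not pass. The differences were -0.22 for Il6 (limma adjusted p = 0.178), -0.02 for Il1b (0.972), 0.07 for Il17f (0.710), 0.15 for Il17a (0.495), 0.19 for Tnf (0.261) and 0.26 for Il1a (0.428). Il6 (4.04 to 4.51) and Il17a (4.93 to 5.58) read below the array medians of 6.09 to 6.22. Il17f (6.35 to 6.88) and Tnf (6.32 to 6.78) lay little above them, Il1b read 5.84 to 7.27 and Il1a 7.62 to 8.67. A change in the dim rows could be missed, and whether the receptors changed more than the cytokines was not tested.

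For each called gene, the 3 genes with the most similar profile over the 8 arrays were found by the root mean square difference after each gene was centred on its own mean. For Csf3r these were Laptm5 (0.05), Plek (0.06) and Tlr9 (0.06), in log2 units. For Csf1r they were Msr1, Crat and Fgd2 (each 0.08). For Csf2rb2 they were Pirb (0.06), Igsf6 (0.07) and AB124611 (0.08), which differed by 1.14, 1.08 and 1.11 between genotypes. For Csf2rb they were Gjd2 (0.06), Emilin2 (0.07) and Glipr2 (0.08), and for Csf3 Magea2, Hspa1a and Sec14l4 (each 0.06). The distance takes in the difference between genotypes as well as the variation within a group.

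Across the alternatives, Csf2rb2 was the steadiest of the called genes and Csf3 the least steady. Of 19 alternatives, the call was lost in 0 for Csf2rb2, 5 for Csf3r, 7 for Csf1r, 8 for Csf2rb and 12 for Csf3. Csf2ra passed in 6 of them.

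**Figure D5:**
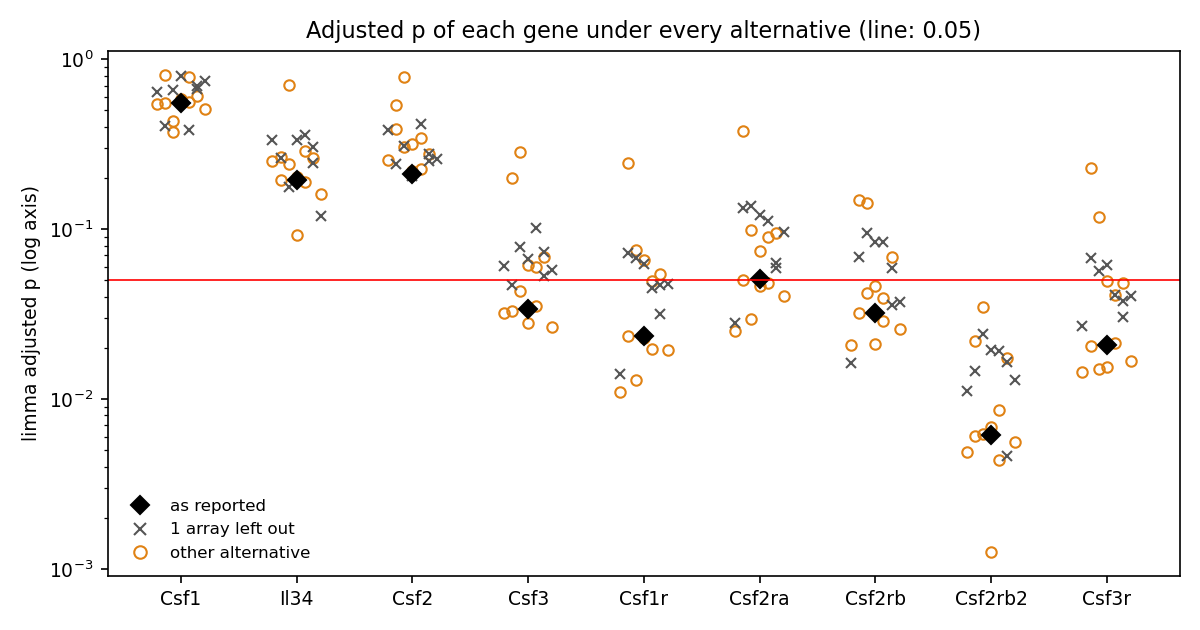
Limma adjusted p (vertical log axis) of each gene under the reported setting (black diamonds), with 1 array left out (crosses) and under the other alternatives (orange circles), with a red line at 0.05. Csf2rb2 lies below the line throughout, Csf1, Il34 and Csf2 lie above it throughout, and the others cross it.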

How the data were processed

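Liver RNA from 8 arrays, 4 labelled IL-10 knockout and 4 wild type, was measured on Affymetrix Mouse Gene 2.0 ST arrays. The deposited values are log2 levels to which the authors applied RMA in R 3.0.1, as the submitters' processing notes list. No further settings or genome build were stated in the sources read. The table holds 41345 rows, with 1 gene named on 23521 and several on 1814, while the platform annotation lists none for 16010. The 23521 gave 22180 genes, and 1082 of these had further rows, of which the one brightest on average was taken. The number of arrays limits the precision, and values near the array medians carry more background signal, which narrows differences.

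Genes were compared with limma 3.58.1 (lmFit, eBayes without trend) in R 4.3.3 over all 8 arrays without covariates or a filter, with Benjamini-Hochberg adjustment over the 22180 genes and a call at adjusted p below 0.05. Every adjusted p of a gene is from limma. Receptor and ligand pairs were tested by exact permutation, two-sided. The 8 arrays are from 8 mice, for which the labels give no litter, cage or array batch. Members, gene lists and motifs were chosen with earlier results of these data known. The genes named are the 9 members, Il10, Xist and Y-linked genes, in each list the called genes of smallest p (at most 3), and 3 nearest profiles per called member. Genes named outside this rule are marked as such where they appear. Ddx3y was not named singly on the array. Lists held 197 memberships, of which 183 were measured. Figures were drawn with matplotlib 3.10.9. Alternatives were the mean of a gene's rows, all rows tested together, a common median, quantile normalization, the lowest 40% left out, trend and robust settings, array weights, the replicate block, the block for and the sets of Xist or Y-linked signal, and each array left out.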

Additional observations from a re-analysis of the deposited data

Results flagged for a closer look

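Among the 18 groups of 4 arrays given by the 9 genes, 1 held an array far from the others. Csf2rb read 7.98 in knockout-labelled replicate 3, where the gap to the next array was 0.832 of the range of its group, above Dixon's critical value for 4 samples. Chance alone sets apart about 1 group in 20. Without that array Csf2rb still differed by 0.42 (limma adjusted p = 0.0162).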

How the results depend on the processing

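Of 170 values of the 9 genes over 19 alternatives, 169 were above 0, the exception being Csf1 (-0.08) in the arrays with Xist signal alone, where it was not called. The count of receptors called higher, 4 as reported, was 2 with all rows tested together, where the adjustment runs over more rows, and 1 in the arrays with Xist signal alone or with Y-linked signal alone, which hold 4 arrays each. It lay between 1 and 5 with 1 array left out, at 1 without knockout-labelled replicate 4 or wild-type replicates 1 or 2. The median difference over receptors was 0.38 in the arrays with Xist signal alone (the cause was not tested), and 0.49 to 0.57 with 1 array left out. The count of ligands called higher by limma was 1 as reported, and 0 to 1 with 1 array left out. It was 0 with all rows together, a common median, the replicate block and either set alone. There, with the Xist set before the Y-linked set, 3, 1, 2, 2 and 2 ligands had an unadjusted limma p under 0.05. In the same order, so had 7211 of 41345 rows and 4448, 4334, 3653 and 2415 of 22180 genes. Of all genes, 699 were called as reported, 317 in the arrays with Xist signal, 171 in those with Y-linked signal and 207 to 1040 with 1 array left out. With the replicate block 497 genes were called, and Csf1r (adjusted p = 0.0662) and Csf3 (0.0619) were not among them. Same-numbered arrays of the groups correlated between -0.10 and 0.29 in their deviations from group means, so the numbers were not taken as pairs. Testing all 41345 rows together called 332 rows, a count of rows and not of genes. A common median left 209 higher and 330 lower, against 347 higher and 352 lower as reported.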

Other observations

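Of 6 measured erythroid genes 3 fell and 3 did not pass, with mean levels of 6.23 to 6.28 in knockout-labelled arrays and 6.61 to 6.90 in wild-type arrays. Among all genes 1.59% were called lower. The carbonic anhydrase Car2, found in red cells and other tissues, was lower by 1.57 on the log2 scale, at 7.01 ± 0.26 in knockout-labelled arrays and 8.58 ± 0.35 in wild-type arrays (SD, n = 4 each; difference -1.57; limma adjusted p = 0.00596).

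Car1, a second carbonic anhydrase, had a difference of -0.95 (limma adjusted p = 0.0230) and lost its call without knockout-labelled replicate 4 or wild-type replicates 2 or 3 (adjusted p up to 0.0669). Tspan33 had -0.52 (0.0436) and kept its call in 3 of 8 fits without 1 array (up to 0.127).

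Lists of other cells had few calls, and all of these except Lyve1 were lost in some fits without 1 array. Of 10 endothelial markers 1 rose (Lyve1, 1.05, called in 8 of 8 such fits). Of 11 T and NK cell markers 1 rose (Il2rb, 0.67, limma adjusted p = 0.0348, called in 3 of 8), and of 13 hepatocyte markers 1 rose (Tat, 0.51, 0.0247, called in 4 of 8). Of 10 stellate cell and matrix markers 2 fell (Lrat, -1.01, 0.0428, and Lum, -0.94, 0.0473, each called in 1 of 8, without knockout-labelled replicate 1). Of 6 bile duct markers 1 fell (Pkhd1, -0.84, 0.0249, called in 6 of 8, lost when wild-type replicate 1 or knockout-labelled replicate 4 was left out). Of 6 B and plasma cell markers 0 were called by limma (0 at an unadjusted p under 0.05). Over all 22180 genes 3.15% were called, and 4700 had an unadjusted limma p under 0.05.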
